A study of Mus musculus with 8 samples.

Results

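The actin isoform genes are Actc1, Acta1, Acta2, Actg2, Actb and Actg1. They were taken by symbol from the deposited count tables, and the 6 rows were found among 41128 gene rows. RNA-seq counts from left ventricle were compared between 4 libraries of mice homozygous for a CRISPR deletion of RE1 and 4 libraries of wild-type littermates (WT). RE1 is a regulatory element in the Nppa-Nppb locus, and all mice were FVB animals of 8 to 12 weeks. The labels' general protocol also lists Myh6-MerCreMer, nTnG and Sun1/sfGFP strains, without tying them to any of these libraries. The number of founder lines behind the RE1 knockout (RE1 KO) group was not given in the sources used here. Each library is labelled as its own replicate, but no animal identifiers are given, so p-values measure the spread between these libraries.

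Actin monomers assemble into filaments. In heart muscle cells the thin filaments of the sarcomere, along which myosin pulls, are built from the cardiac α-actin of Actc1 and the skeletal α-actin of Acta1, while the products of Actb and Actg1 form the filaments of the cell cortex and of non-muscle cells. Acta2 encodes the smooth muscle α-actin of blood vessel walls and Actg2 the smooth muscle γ-actin of gut and other hollow organs. In the rodent ventricle Acta1 is high around birth, is replaced largely by Actc1 in the adult, and returns under load together with the natriuretic peptide genes Nppa and Nppb. Actin genes are classical targets of serum response factor (SRF), which binds the CArG box.

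Total gene counts ran from 16778368 to 37133306 in RE1 KO libraries and from 20284865 to 34742840 in WT libraries. The labels were checked on the genes beside RE1. Nppa had 4 to 14 raw counts in RE1 KO libraries, against 246 to 640 in WT libraries, and Nppb had 1 to 16 against 1875 to 4266. Summed markers of ventricular cardiomyocytes made up 107917 to 112658 CPM (counts scaled to library size) in RE1 KO libraries and 104197 to 110713 CPM in WT libraries, against at most 3.56 CPM and 1.57 CPM for atrial markers.

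In RE1 KO ventricle the cardiac α-actin Actc1 was 14.3% above WT and the skeletal α-actin Acta1 was above 3 of the 4 WT libraries in every RE1 KO library, while the cytoplasmic Actb was nearly level. None of the 6 actin genes passed the threshold, an adjusted p of 0.05 in edgeR's quasi-likelihood test with Benjamini-Hochberg adjustment, against 1.06% of the 16551 genes tested (0.375% higher and 0.689% lower in RE1 KO). All 6 passed the low-count filter and all 6 had a log2 fold change above 0, as did 50% of all genes tested. Their summed counts were 0.561% to 0.666% of the library in RE1 KO and 0.499% to 0.537% in WT. Without Acta1 the summed normalized counts were 131554 to 155574 in RE1 KO and 118507 to 131296 in WT, most of them from Actc1. These sums are given as a description.

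The promoters of the sarcomeric pair are shown because their ratio is the main comparison here. RefSeq promoter windows (build GRCm38.p6) were found for 4 of the 6 genes, Acta1, Acta2, Actc1 and Actg1, and were searched for the CArG box and for a CArG-like box with a single G or C in its core. The stretches below hold the 250 bases before the RefSeq start, at chr8:123894776-123895025 for Acta1 and chr2:114052876-114053125 for Actc1, both on the minus strand and printed 5′ to 3′. Capitals mark the CArG and CArG-like boxes.
Acta1: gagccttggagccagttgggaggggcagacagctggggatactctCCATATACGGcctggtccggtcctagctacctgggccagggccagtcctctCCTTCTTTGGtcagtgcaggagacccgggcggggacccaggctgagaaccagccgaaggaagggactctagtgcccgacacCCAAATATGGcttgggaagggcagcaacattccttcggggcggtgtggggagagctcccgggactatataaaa
Actc1: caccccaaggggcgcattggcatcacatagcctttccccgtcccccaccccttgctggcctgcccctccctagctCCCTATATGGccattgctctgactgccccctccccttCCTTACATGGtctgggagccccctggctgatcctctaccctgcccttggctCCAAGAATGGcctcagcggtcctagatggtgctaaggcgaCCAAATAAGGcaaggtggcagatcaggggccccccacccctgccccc

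Acta1 held 3 boxes, of which CCAAATATGG was a full CArG box and began 73 bases before the start. Actc1 held 4 boxes, of which CCAAATAAGG was a full CArG box and began 47 bases before the start. The Actg1 window held a single full CArG box, CCATATATGG, and the Acta2 window held 2 CArG-like boxes, CCCTATATGG and CCTTGTTTGG, with no full one. A CArG box reads the same on both strands as a pattern, so both strands were covered, and the 2 patterns do not overlap. The windows searched were 300 bases long, with 50 bases after the start besides those printed. Of 32851 such windows of all genes, 1.63% held a CArG box, 0.0548% held at least 3 CArG or CArG-like boxes and 0.00609% held at least 4. Start sites differ between annotations, so the distances are those of the RefSeq table. A match is a description of letters and not of a bound site.

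Actc1 was the most abundant actin mRNA. It lies at chr2:114047282-114053548 (GRCm38, GENCODE M21, minus strand). Actc1 had 131689, 114922, 137434 and 113494 normalized counts in RE1 KO replicates 1 to 4, against 107642, 102849, 113273 and 111296 in WT replicates 1 to 4. Normalized counts are the authors' raw counts divided by a size factor per library. The groups did not overlap, but RE1 KO replicates 2 and 4 lay just above the highest WT library, and replicates 1 and 3 were clearly above it. Groups that did not overlap in either direction were found for 7.15% of the 16551 genes tested, and for 3.32% with RE1 KO higher.

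Actc1 averaged 124385 ± 11997 normalized counts in RE1 KO and 108765 ± 4582 in WT (SD, n = 4 each). The difference was 14.3%, a log2 fold change of 0.19 with a standard error of 0.06 (95% interval 0.07 to 0.32). It did not pass the threshold of 0.05 (edgeR adjusted p = 0.148), and Actc1 was among the 13.0% of genes with an unadjusted p under 0.05. In the authors' deposited table, whose log2 fold change is WT over RE1 KO, Actc1 had -0.19 with an adjusted p of 0.0773. The adjusted p of edgeR with no low-count filter was 2.97e-05, and over all alternatives it ran up to 0.338.

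The RE1 KO libraries formed the same 2 sets over all genes. The mean chi-square per gene was 3.14 between replicates 1 and 3 and 3.61 between replicates 2 and 4, against 14.5 to 16.5 between libraries of different sets. Mitochondrial rRNA took 9.40% and 9.01% of counts in RE1 KO replicates 1 and 3, which had the higher Actc1 values, and 6.40% and 6.19% in replicates 2 and 4. In WT libraries it took 8.51% to 10.5%. Acta1 was also higher in RE1 KO replicates 1 and 3 (17062 and 22349 normalized counts) than in replicates 2 and 4 (14839 and 13942). The part of these sets and of mitochondrial rRNA in the Actc1 and Acta1 values was not tested. In bulk tissue, fewer cells of a type and less RNA per cell cannot be told apart, and this holds for every gene below.

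Acta1 was higher in all RE1 KO libraries than in 3 of the 4 WT libraries. The gene lies at chr8:123891769-123894751 on the minus strand. It had 17062, 14839, 22349 and 13942 normalized counts in RE1 KO replicates 1 to 4, against 7346, 21464, 7349 and 7589 in WT replicates 1 to 4. WT replicates 1, 3 and 4 lay close together, and WT replicate 2 stood among the RE1 KO libraries, so the groups overlapped.

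Over all libraries Acta1 averaged 17048 ± 3769 normalized counts in RE1 KO and 10937 ± 7019 in WT (SD, n = 4 each). This was a 1.56-fold difference, a log2 fold change of 0.64 with a standard error of 0.43, and its 95% interval ran from 0.75-fold to 3.23-fold. It was not called (edgeR quasi-likelihood test, adjusted p = 0.610). Without WT replicate 2 the log2 fold change was 1.20, with an adjusted p of 0.0824 in the same edgeR fit and of 0.000800 when the spread was estimated without edgeR's robust option. The setting without the robust option was chosen after seeing the data. Whether Acta1 passes the threshold therefore depended on that library and on this option.

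**Figure D1:**
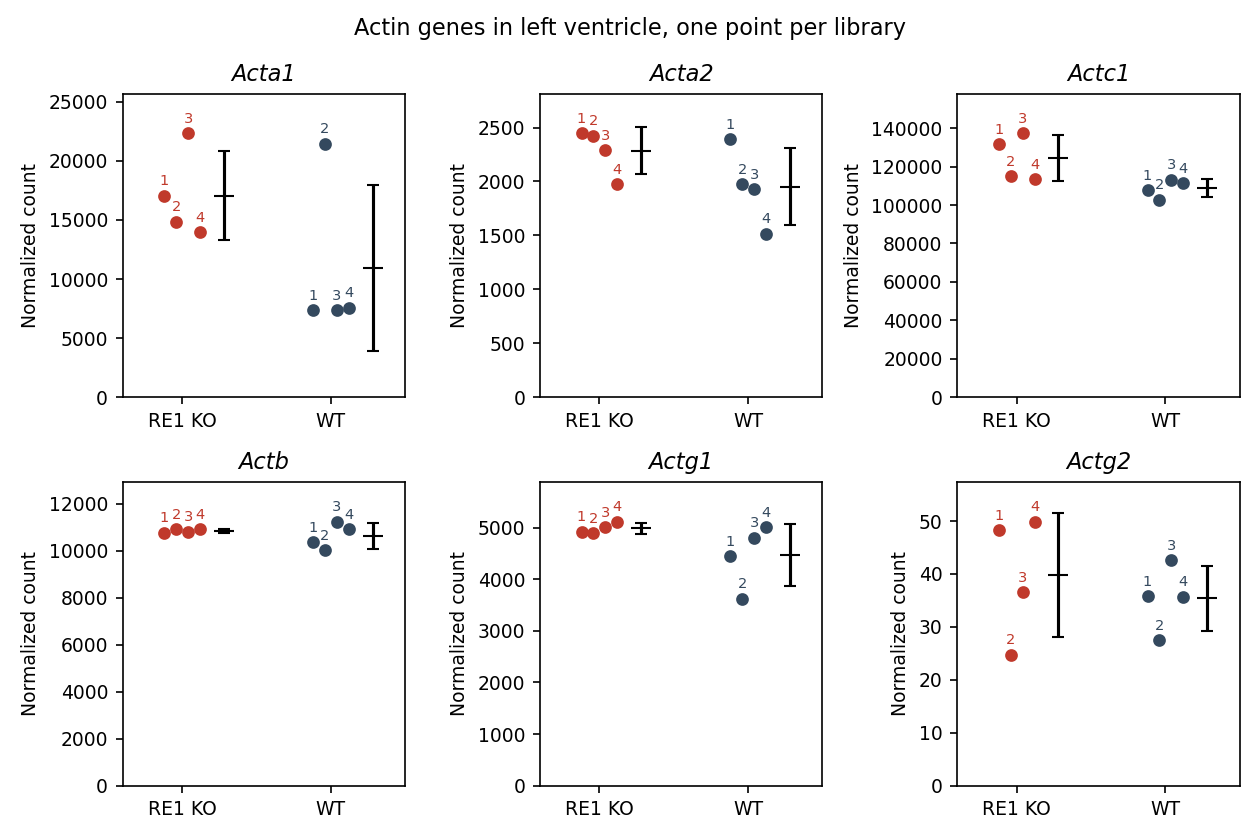
Normalized counts (y axis, linear, from 0) of each actin gene in RE1 KO and WT libraries. Points are single libraries with their replicate number, and bars beside them are the mean ± SD of 4 libraries. RE1 KO libraries of Actc1 all lie at or above 113494 and WT libraries at or below 113273, while WT replicate 2 of Acta1, at 21464, lies among the RE1 KO libraries.

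WT replicate 2 was examined further, since it set the spread of Acta1. Of the genes in which this library alone stood far above the other WT libraries, Acta1 had the largest excess. Among 10897 genes with a mean of at least 2 log2 CPM, 568 (5.21%) had a single WT library far from the rest by Dixon's criterion, and in 172 of them it was WT replicate 2 as the highest. Its Acta1 level was 2.89-fold the mean of the other WT libraries. Next among these 172 genes came Fgl2 at 1.81-fold and Lyz2, a lysozyme gene of macrophages, at 1.65-fold. The genes compared here were picked by these values. Over all genes, the mean chi-square per gene between WT replicate 2 and WT replicates 1, 3 and 4 was 8.89, 13.1 and 9.64. Between pairs of the other WT libraries it was 4.98 to 8.20.

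Of 7 markers of skeletal muscle, 5 had low counts in WT replicate 2, with 30 raw counts for Myh2, 14 for Tnnt3, 8 for Tnni2, 2 for Mylpf and 0 for Pvalb, which was at 0 in every library. Tnnt3, the fast skeletal troponin T gene, was higher there, at 0.522 CPM, than in any RE1 KO library (0.119 to 0.315 CPM) and was the highest of the WT libraries. The fast myosin genes Myh1 and Myh4 made up nearly all of the sum. Myh1 had 225 CPM in WT replicate 2, against 205 to 249 CPM in RE1 KO libraries and 212 to 225 CPM in WT libraries, and Myh4 had 61.9 CPM, against 57.7 to 73.7 CPM in RE1 KO libraries and 55.9 to 67.7 CPM in WT libraries. All 7 together summed to 289 CPM in WT replicate 2, inside the range of 264 to 324 CPM in RE1 KO libraries and at the top of the range of 278 to 289 CPM in WT libraries. The same library had the highest WT sums of macrophage markers (90.7 CPM) and activated fibroblast markers (95.7 CPM) and the lowest of mesothelial markers (3.95 CPM). Nppa was also highest there, at 628 normalized counts, against 346, 327 and 378 in WT replicates 1, 3 and 4, whereas Nppb was lowest there, at 1840. The part of these in its Acta1 value was not tested.

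The Acta1 to Actc1 ratio compares the sarcomeric isoforms within a library, so no size factor enters. For every 100 Actc1 counts there were 13.0, 12.9, 16.3 and 12.3 Acta1 counts in RE1 KO replicates 1 to 4, against 6.82, 20.9, 6.49 and 6.82 in WT replicates 1 to 4. RE1 KO replicate 3 was the highest of its group, and WT replicate 2 was above every RE1 KO library. The remaining WT libraries were at about the same value and below every RE1 KO library.

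The mean log2 ratio was -2.89 ± 0.18 in RE1 KO and -3.49 ± 0.82 in WT (SD, n = 4 each). The difference was 0.60 on the log2 scale, or 1.52-fold, with p = 0.143 in a two-sided exact permutation test over 70 assignments, whose smallest possible p is 0.0286. On the linear ratio the exact p was 0.4. Leaving out WT replicate 2 gave a difference of 1.01 with an exact p of 0.0286, the smallest that permutations of 4 against 3 libraries can give. That p was fixed by leaving out the only WT library that was not below every RE1 KO library, so no conclusion is drawn from it. Leaving out each of the other libraries gave differences of 0.45 to 0.65.

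**Figure D2:**
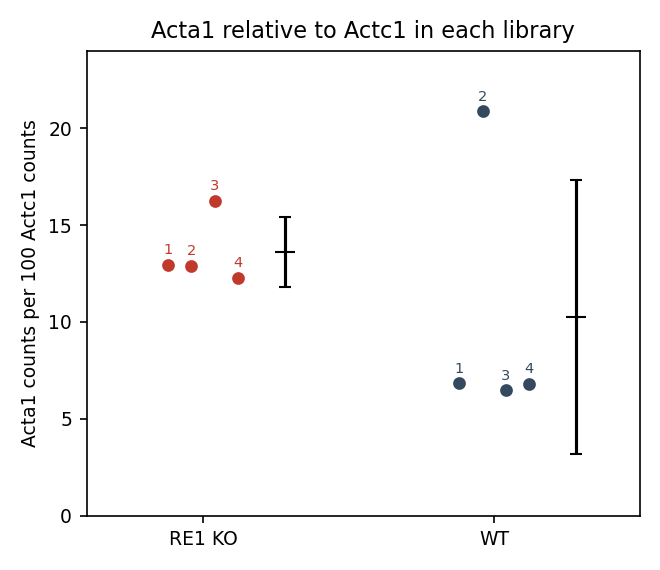
Acta1 counts per 100 Actc1 counts (y axis) in RE1 KO and WT libraries, with points numbered by replicate and the mean ± SD of 4 libraries beside them. The 4 RE1 KO libraries sit between 12.3 and 16.3, WT replicates 1, 3 and 4 between 6.49 and 6.82, and WT replicate 2 at 20.9.

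**Figure D3:**
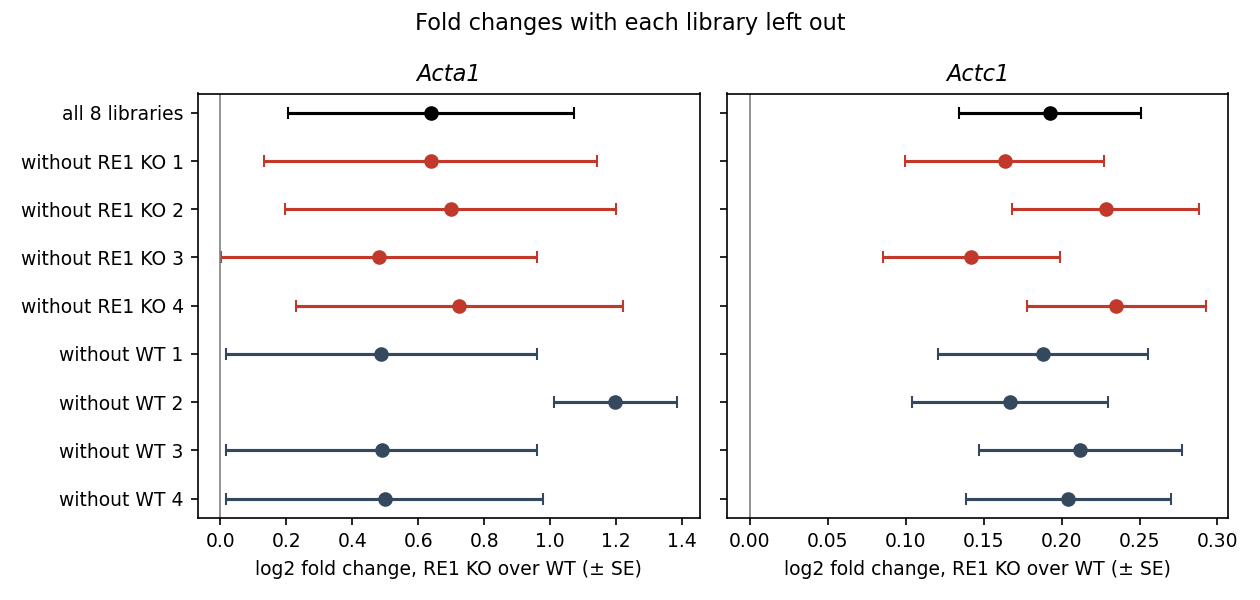
Log2 fold change of RE1 KO over WT for Acta1 and Actc1 (x axes, with different ranges) in all 8 libraries and with each library left out, with bars of ± 1 standard error from edgeR. Acta1 moves to 1.20 only without WT replicate 2, and Actc1 stays between 0.14 and 0.23.

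The ratios of the other gene pairs were set out in the same way, 15 pairs in all, as a description. Only Actc1 over Actb had groups that did not overlap, at 10.4 to 12.7 Actc1 counts per Actb count in RE1 KO and 10.1 to 10.4 in WT. There the lowest RE1 KO value, 10.399, and the highest WT value, 10.391, nearly touched.

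Acta2, the smooth muscle α-actin of vessel walls, lies at chr19:34241090-34255590 on the minus strand. It had 2448, 2423, 2289 and 1977 normalized counts in RE1 KO replicates 1 to 4, against 2390, 1976, 1931 and 1515 in WT replicates 1 to 4. The groups overlapped, with only RE1 KO replicates 1 and 2 above every WT library. The log2 fold change was 0.22 with a standard error of 0.14 (95% interval -0.12 to 0.56), and it was not called (edgeR adjusted p = 0.582).

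Markers of smooth muscle and pericytes are given beside Acta2. All 10 of these markers had log2 fold changes below 0, with a median of -0.10, and 0 of 10 were called. Their summed level was 714 to 779 CPM in RE1 KO and 755 to 779 CPM in WT. Myh11, the smooth muscle myosin heavy chain, had a log2 fold change of -0.01 with a standard error of 0.17, and Tagln, an actin-binding protein of smooth muscle, had -0.12 with a standard error of 0.25. A difference between Acta2 and these markers was not tested.

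Actg2, the smooth muscle γ-actin of hollow organs, lies at chr6:83512905-83536265 on the minus strand and was near the lower limit of detection for a fold change. It had 48.3, 24.8, 36.5 and 49.9 normalized counts in RE1 KO replicates 1 to 4, against 35.8, 27.5, 42.6 and 35.7 in WT replicates 1 to 4, so the groups overlapped. The log2 fold change was 0.13 with a standard error of 0.24 (edgeR adjusted p = 0.870). It was -0.020 without RE1 KO replicate 4, so no direction can be read.

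Actb, which encodes cytoplasmic β-actin and lies at chr5:142903115-142906754 on the minus strand, had a coefficient of variation of 0.719% in RE1 KO and 5.13% in WT, against 9.64% and 4.21% for Actc1. It had 10771, 10928, 10805 and 10914 normalized counts in RE1 KO replicates 1 to 4, against 10359, 10027, 11244 and 10911 in WT replicates 1 to 4. All RE1 KO values lay inside the WT range. The SD was 78.1 in RE1 KO and 545 in WT. The difference was 2.03%, with a 95% interval from 0.96-fold to 1.08-fold (edgeR adjusted p = 0.83).

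Actg1, which encodes cytoplasmic γ-actin, lies at chr11:120345690-120348542 on the minus strand. It had 4920, 4896, 5010 and 5119 normalized counts in RE1 KO replicates 1 to 4, against 4444, 3628, 4806 and 5005 in WT replicates 1 to 4. The groups overlapped, and WT replicate 2, the library with the high Acta1 value, had the lowest Actg1 value. The log2 fold change was 0.16 with a standard error of 0.08 (95% interval -0.03 to 0.34), and it was not called (edgeR adjusted p = 0.478). Without a low-count filter its adjusted p was 0.0368.

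Counts of Actg1 are uncertain because the gene shares sequence with processed pseudogenes. Of its exonic stretches of 100 bases, 29.9% also occur in other genes, 26.0% in Gm12715 alone. Gm12715, Gm8399 and Actg-ps1 together had 111% to 118% of the Actg1 count in RE1 KO libraries and 110% to 118% in WT libraries. Their log2 fold changes were 0.16, 0.16 and 0.12, none of them called, and summing them with Actg1 did not bring it past the threshold. The same measure was 0.644% for Actb and 0% for the other actin genes.

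To compare levels between genes, normalized counts were divided by the exon length of each gene in kilobases. On this scale the order was Actc1, Acta1, Actb, Actg1, Acta2 and Actg2 in both groups. By group means, Actc1 was 6.93 times Acta1 in RE1 KO and 9.44 times in WT. Acta1 was 2.74 times Actb in RE1 KO and 1.79 times in WT. Both WT figures include WT replicate 2, with 13974 Acta1 normalized counts per kilobase. WT replicates 1, 3 and 4 had 4783, 4784 and 4940, so neither figure is typical of a single WT library. Neighbours in this order had ranges that did not overlap within either group. Actg1 was counted here without its processed pseudogenes, whose summed counts exceeded its own, so its place below Actb is uncertain. With exons of protein-coding transcripts only, Acta1 exceeded Actb in 1 of 4 WT libraries, so that order was not kept in WT.

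**Figure D4:**
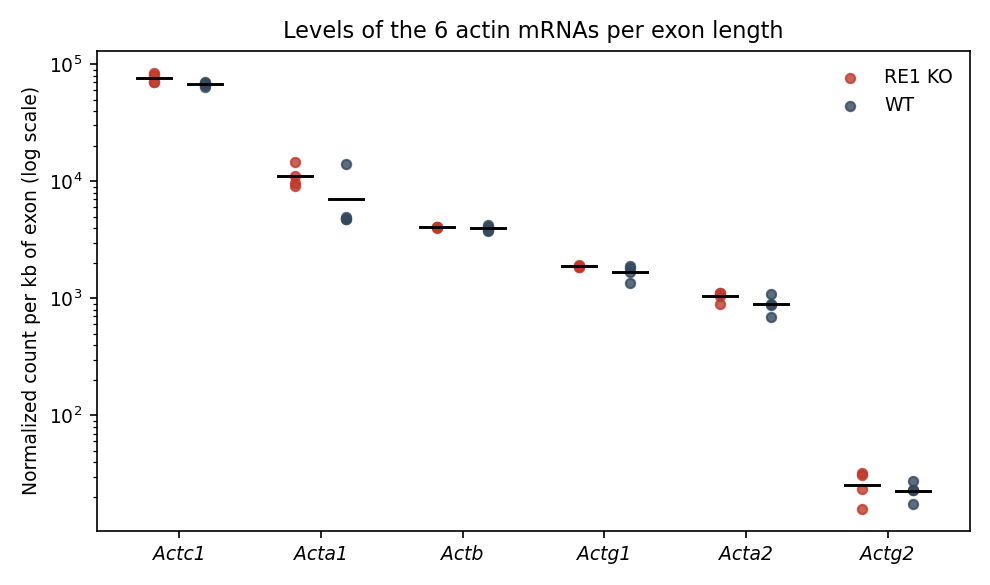
Normalized counts per kilobase of exon (y axis, log scale) of the 6 actin genes, in order of level, with RE1 KO left of WT. Points are libraries and lines are group means. By group means, Actc1 is 6.93 times Acta1 in RE1 KO and 9.44 times in WT. Acta2 is 40.6 times Actg2 in RE1 KO and 39.1 times in WT. The WT mean of Acta1 includes WT replicate 2, far above the other WT points.

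As a share of the actin mRNA per exon length, Actc1 made up 81.0% ± 0.87 in RE1 KO and 83.2% ± 4.73 in WT (SD, n = 4 each). Acta1 made up 11.2%, 11.01%, 13.7% and 10.5% in RE1 KO replicates 1 to 4, against 6.14%, 16.7%, 5.86% and 6.15% in WT replicates 1 to 4. WT replicate 2 was again the exception, with the lowest share of Actc1, 76.1%. Actb held 4.30% ± 0.46 in RE1 KO and 4.91% ± 0.30 in WT, and Actg1, Acta2 and Actg2 each held at most 2.34% in any library. Actg1 was again counted without its pseudogenes, so its share is uncertain. Shares are tied to each other and were not tested.

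Genes that regulate, fold and bind actin, other SRF targets, and fetal and stress genes of the ventricle were grouped in 9 lists. Of 112 distinct genes in the table, 109 were tested, of which 1 rose and 2 fell in RE1 KO (2.75%, against 1.06% of all genes). Their median log2 fold change was 0.03, against 0.00 for all genes tested. The gene that rose was Gsn, encoding gelsolin, which severs and caps actin filaments. Fscn1, which encodes the filament-bundling protein fascin, was among those that fell.

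Gsn had 24116, 25810, 25829 and 26994 normalized counts in RE1 KO replicates 1 to 4, against 20686, 22208, 20626 and 21998 in WT replicates 1 to 4. The groups did not overlap, and the log2 fold change was 0.26 with a standard error of 0.04 (edgeR adjusted p = 0.00741). It was called with each library left out. Fibroblast markers, of a cell type in which gelsolin is abundant, are given beside it. They summed to 507 to 541 CPM in RE1 KO and 461 to 488 CPM in WT, with all 5 of 5 log2 fold changes above 0 and Pdgfra called at 0.41 (edgeR adjusted p = 0.0130). Of 4 activated fibroblast markers tested, 1 had a log2 fold change above 0 and 3 below, with a median of -0.16 and 0 called. The part of either list in the Gsn value was not tested.

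Fscn1 had 301, 320, 291 and 323 normalized counts in RE1 KO replicates 1 to 4, against 386, 433, 439 and 364 in WT replicates 1 to 4. Its groups did not overlap and its log2 fold change was -0.39 with a standard error of 0.08 (edgeR adjusted p = 0.0224). The call of Fscn1 was lost without any one of RE1 KO replicates 1, 2 or 3 or WT replicates 1 or 2, where the edgeR adjusted p reached 0.0665. Endothelial markers summed to 502 to 568 CPM in RE1 KO and 541 to 608 CPM in WT, with 0 of 5 called and 5 of 5 log2 fold changes below 0, and their part was not tested.

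**Figure D5:**
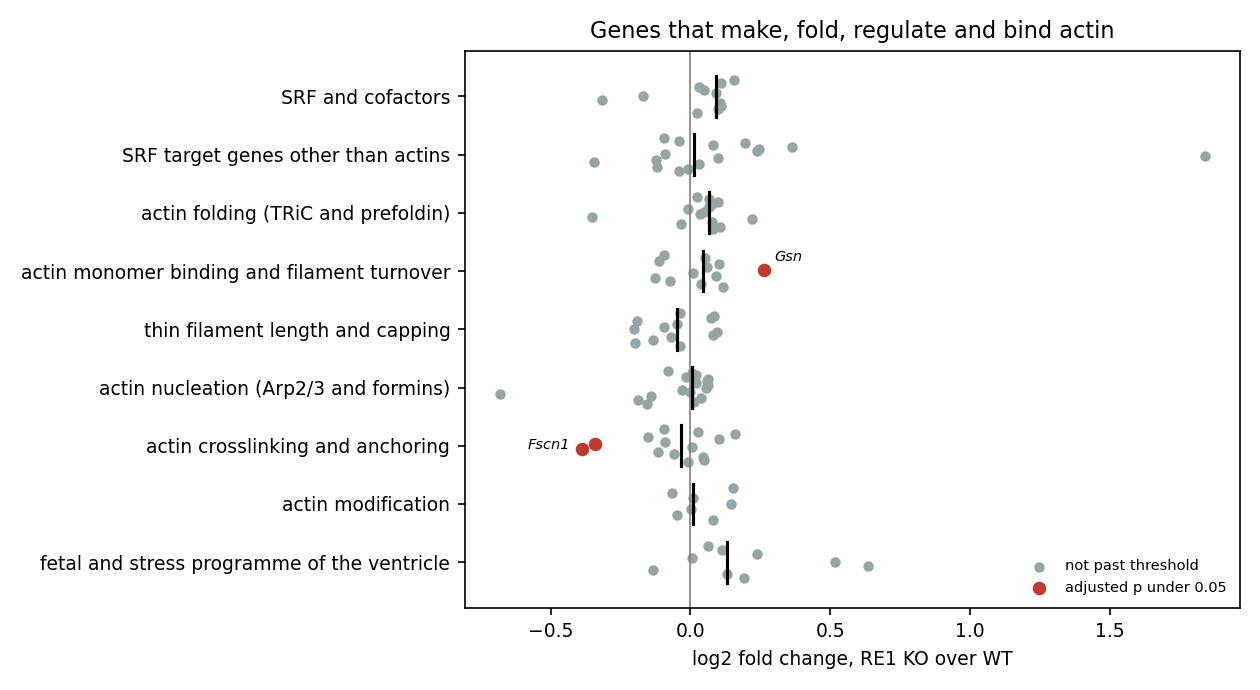
Log2 fold change of RE1 KO over WT (x axis) for the genes of 9 actin-related lists. Points are genes, coloured where the adjusted p was under 0.05, and vertical ticks are list medians. Gsn at 0.26 and Fscn1 at -0.39 are labelled among the 3 called genes, and the point at 1.84 is Fos.

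Among SRF and its cofactors, 0 of 11 genes were called and the median log2 fold change was 0.09. Srf itself had 0.10 with a standard error of 0.05. Mkl2, which encodes the SRF coactivator MRTF-B, had 762 ± 49.1 normalized counts in RE1 KO and 943 ± 117 in WT, with groups that did not overlap and an adjusted p of 0.0682 in edgeR. Fhl2, a cofactor abundant in heart, had a log2 fold change of 0.11. Of SRF targets other than actins, 0 of 16 were called and the median was 0.01. Tagln2, an actin-binding protein, had -0.35 (edgeR adjusted p = 0.0579) and Cyr61, a matricellular protein, had 0.36 (edgeR adjusted p = 0.122). Fos, an immediate early gene picked by its value, had 1.84 with a standard error of 0.73 and overlapping groups.

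The chaperones that fold actin, TRiC and prefoldin, had 0 of 14 genes called and a median log2 fold change of 0.07. The TRiC subunit Tcp1 had 0.11 and the prefoldin subunit Pfdn2 had -0.35. In the list of monomer binding and filament turnover, 12 of 13 genes passed the filter, 11 of them were not called, and the median was 0.05. Wdr1, which promotes disassembly with cofilin, had 0.12, and Tmsb4x, which encodes the monomer-sequestering thymosin β4, had -0.13 with groups that did not overlap.

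Genes that set thin filament length and cap filament ends had 0 of 13 called and a median of -0.05. Tmod3, a pointed-end capping tropomodulin, had 1186 ± 44.5 normalized counts in RE1 KO and 1360 ± 60.8 in WT, a log2 fold change of -0.20 with groups that did not overlap (edgeR adjusted p = 0.0643). Nebl, encoding nebulette of the cardiac Z-disc, had 0.09. The nucleators, Arp2/3 and formins, had 0 of 17 called and a median of 0.00. The formin Fmnl2 had -0.19 and Wasl, an activator of Arp2/3, had -0.15.

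Crosslinking and anchoring genes had 2 of 14 members called, both lower in RE1 KO, and a list median of -0.03. Dystrophin (Dmd), which links filaments to the membrane, had 0.10, and the crosslinker Actn4 had -0.15. Genes of actin modification had 0 of 7 called and a median of 0.01. Msrb1, which reduces oxidized actin, had 0.15, and Setd3, which methylates actin, had 0.08.

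The list of the fetal and stress programme of the ventricle held 9 tested genes of 11, of which 0 were called, 8 had log2 fold changes above 0, and the median was 0.13. Over all genes tested, 50% had a log2 fold change above 0 and 7.15% had groups that did not overlap. Rcan1, a calcineurin regulator, had 2139, 2147, 2478 and 1906 normalized counts in RE1 KO replicates 1 to 4, against 1116, 1156, 1500 and 1826 in WT replicates 1 to 4. Its groups did not overlap, and its log2 fold change was 0.64 with a standard error of 0.18 (edgeR adjusted p = 0.223). Fhl1 had 0.24. Myh7, the slow myosin heavy chain that returns under load in the rodent ventricle, had 0.01 with a standard error of 0.04.

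The genes whose deviations from the group means were most like those of each actin gene were sought among 7846 genes with a mean of at least 3 log2 CPM, over the 8 libraries and without a test. For Acta1 they were Mmp2 (r = 0.99, rho = 0.83), Ndufaf1 (r = 0.99, rho = 0.93) and Nol3 (r = 0.98, rho = 0.90), and r was 0.97, 0.95 and 0.96 without WT replicate 2. For Actc1 they were Smarcc1, Usp54 and Ywhae, each with r = 0.97, and with r = 0.96 without RE1 KO replicate 3. In both cases the group means still included the library left out, so its influence on r was not fully removed. The closest genes to Acta2 were Mocs2, Slc12a2 and Fam219b, to Actb Tppp, Epha2 and Amotl2, to Actg1 Zfp317, Ddx39b and Eif4b, and to Actg2 Cep128, Nomo1 and Ssh1, with r of 0.95 to 0.99. With 7846 genes searched on 8 libraries, high r can arise between unrelated genes. The level to expect from such a search was not computed, so no link is read.

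Among the actin genes themselves, the deviations of Actb and Actg1 had r = 0.86 (rho = 0.71) and those of Acta1 and Actg1 had r = -0.86 (rho = -0.67) over the 8 libraries, a description of points that share library composition. WT replicate 2 had the highest Acta1 value of the WT libraries (9.67 log2 CPM) and their lowest Actg1 (7.11) and Actb (8.57) values. These r rest in part on that library and were not recomputed without it, so no opposed pattern is read. Acta1 and Actc1 had r = -0.01 (rho = 0.07).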

How the data were processed

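Raw counts per gene were deposited with normalized counts, a linear signal in which the authors divided each raw count by the size factor of its library. The comparison that the authors deposited gives log2 fold changes (WT over RE1 KO) with a raw and an adjusted p-value. Per the labels' protocols, total RNA (900 ng) went into a stranded kit and was read as paired ends of 125 bases. Per the submitters' processing notes the tools include STAR and DESeq2 and the build is mm10. Neither the counting program nor its use of strand was stated in the labels.

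The quasi-likelihood test used edgeR 4.0.16 under R 4.3.3 on the raw counts of all genes, scaled by TMM, filtered by filterByExpr and fitted by group with robust estimation. It was two-sided, with Benjamini-Hochberg adjustment over 16551 genes. The edgeR standard errors derive from the log2 fold change and its quasi-likelihood F statistic, and log2 CPM used a prior count of 2. Exon lengths and coordinates are from GENCODE M21, and sequence sharing is the percent of exonic stretches of 100 bases found in other genes. The step was tested on simulated data for 16387 genes, with a recovery of 56% for changes of 1.25-fold, 88% for 1.5-fold and 98% for 2-fold, and 10 of 180 calls were false. Changes were planted only in genes with higher counts than Actg2, so these rates do not cover it. Simulated counts followed the fitted spread of each gene and held no planted outlying library, unlike Acta1 in WT replicate 2. Alternatives were other size factors, filters, tools (DESeq2 1.42.0, limma 3.58.1), each library left out and a replicate block.

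The actin genes and the lists were chosen with earlier results of these data known. Named list genes are those past the threshold and the 2 with the smallest p in each list, except for 1 gene that is not reported here. Srf, Fos and Myh7 fall outside this rule and were named after their values were seen. Genes named as alike are the 3 with the highest r and no provisional symbol.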

Additional observations from a re-analysis of the deposited data

Results flagged for a closer look

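In 5 of 18 sets of 4 libraries examined, a single library stood apart, with a gap to its nearest neighbour over the set's whole range above Dixon's critical value. Chance alone gives such a gap in about 1 in 20 sets, and the sets share libraries. In 4 of the 5 the library was WT replicate 2. The gap was 0.983 for the Acta1 normalized counts of the WT libraries, 0.977 for their Acta1 to Actc1 ratio, 0.973 for their Acta1 share of actin mRNA and 0.964 for their Actc1 share. The first 3 are high values and the last a low one, and all 4 measures include the Acta1 count of that library. Among RE1 KO libraries the Acta1 to Actc1 ratio of replicate 3, at 16.3 Acta1 counts per 100 Actc1 counts, gave 0.831.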

How the results depend on the processing

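Of 244 values recomputed under alternatives, 218 kept their direction and side of the threshold or stayed within the spread. The causes of the changes below were not tested. Acta1 passed the threshold at 1.20 (adjusted p = 0.000800) only without WT replicate 2 together with an estimate of spread without the robust option. Its adjusted p ran up to 0.802 over all alternatives, and its log2 fold change ran from 0.48 to 1.20 with single libraries left out. With no low-count filter Actc1 passed at 0.19 (adjusted p = 2.97e-05) and Actg1 at 0.16 (adjusted p = 0.0368). Called actin genes then numbered 2, and 1 without WT replicate 2 and the robust option. That setting without a filter called 269 genes higher and 374 lower, against 62 and 114. Actg2 reversed to -0.020 without RE1 KO replicate 4, its range with single libraries left out being -0.020 to 0.34. The ratio difference ranged from 0.45 to 1.01 with single libraries left out and passed the threshold, at 1.01, only without WT replicate 2. There the groups no longer overlapped, so the exact p could only take its smallest value. The Actc1 share in RE1 KO was 77.9% of raw counts and 79.9% with exons of protein-coding transcripts only.

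Genes of the actin-related lists called higher numbered 1, but 3 with DESeq2, 2 with limma on normalized counts, 2 with limma-voom, 5 with no low-count filter, 2 with a replicate block, 2 without robust estimation, and 1 to 3 with single libraries left out. Those called lower numbered 2, but 5 with DESeq2, 5 with no low-count filter, 5 at a threshold of 0.1, 3 with a replicate block, 1 without WT replicate 2 and the robust option, and 1 to 4 with single libraries left out. The counts of 3 and 4 came without WT replicate 4, and that of 1 lower gene without RE1 KO replicate 1, 2 or 3 or WT replicate 1 or 2, where the call of Fscn1 was lost. No label states that replicate numbers pair the libraries, and same-numbered deviations over all genes correlated at -0.08 to 0.02. This does not settle pairing for single genes. A replicate block gave 70 genes higher and 116 lower, called no actin gene, and left the ratio difference at 0.60 (exact sign-flip p = 0.25). For Acta2 the block lowered the standard error from 0.14 to 0.06. The edgeR adjusted p of Acta2 was then 0.0505, just short of the threshold, against 0.582 without the block. Actg2 had too few counts for the filter at 50 counts. The 95% intervals above show what 4 libraries a group can resolve.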
